A study of Mus musculus with 6 samples.

Results

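The genes described here are 9 cathepsins (Ctsa, Ctsb, Ctsc, Ctsd, Ctsh, Ctsl, Ctss, Ctsw and Ctsz) and Cst3, which encodes the cysteine protease inhibitor cystatin C. They are 10 of the 55809 genes in the deposited count table and were matched by gene symbol. They were selected from earlier results of the same comparison, so their differences between the media are given as a description, and no p-value is given for them. The cells were 410.4, a mouse breast cancer cell line, kept for 2 days in medium with 0.5% fetal calf serum. The groups were NET-conditioned medium (3 libraries), made by isolating neutrophil extracellular traps (NETs) in it, and control medium (3 libraries), the same serum-poor medium without them. A NET is a mesh of chromatin studded with granule enzymes that a neutrophil casts out on activation. By its title, the series is about NETs that form during chemotherapy and TGF-beta activation in metastatic breast cancer cells. The labels do not say that the libraries came from separate cultures, so the spread between replicates may be technical.

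Cathepsins are proteases of the lysosome, made as inactive precursors, carried there by mannose 6-phosphate receptors and matured at low pH. Cathepsins B, C, H, L, S, W and Z are papain-like cysteine proteases, cathepsin D is an aspartic protease and cathepsin A a serine carboxypeptidase. Tumour cells can also secrete them, and outside the cell they cut matrix and growth factor precursors. Cystatin C is a secreted inhibitor that binds the active site of cysteine cathepsins, while cystatin B acts in the cytosol.

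Many lysosomal genes carry the palindromic E-box CACGTG, often as TCACGTGA, near their start, where the factors TFEB and TFE3 of the MiT family can bind. Promoters from 250 bases before to 50 bases after the start were taken from RefSeq on GRCm38.p6 for 7 of the 10 genes. There were 8 such promoters, with 2 for Ctsa, and none for Ctsb, Ctsh and Ctsw. CACGTG was present in 3 of the 8, for Ctsl, Ctsd and 1 of the starts of Ctsa, against 7.15% of 32851 mouse promoters of the same length. The longer TCACGTGA, which contains it, was present in 2 of the 8, for Ctsd and Ctsa, against 0.974% of all promoters. TGANTCA, the AP-1 motif, and GTCTAGAC, a motif of SMAD factors, were in 0 of the 8, against 7.81% and 0.213% of all promoters. Motifs were searched on both strands, and a match is a description of the letters, not a bound site. The 3 sequences with the E-box are shown because Ctsl and Ctsd are among the cathepsins with the largest differences between the media. They run 5′ to 3′ over the 250 bases before the start, and capitals mark CACGTG.
Ctsl, chr13:64370521-64370770, minus strand: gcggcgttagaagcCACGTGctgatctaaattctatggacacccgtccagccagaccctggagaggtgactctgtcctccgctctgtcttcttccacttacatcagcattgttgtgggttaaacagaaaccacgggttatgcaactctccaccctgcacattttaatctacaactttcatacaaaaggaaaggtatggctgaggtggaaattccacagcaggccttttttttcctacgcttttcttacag
Ctsd, chr7:142387828-142388077, minus strand: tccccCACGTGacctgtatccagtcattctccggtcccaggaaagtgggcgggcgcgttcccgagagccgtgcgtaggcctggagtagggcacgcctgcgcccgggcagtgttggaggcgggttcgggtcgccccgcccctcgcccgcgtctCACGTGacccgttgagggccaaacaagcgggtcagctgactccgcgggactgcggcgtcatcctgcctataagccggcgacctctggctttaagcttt
Ctsa, chr2:164833523-164833772, plus strand: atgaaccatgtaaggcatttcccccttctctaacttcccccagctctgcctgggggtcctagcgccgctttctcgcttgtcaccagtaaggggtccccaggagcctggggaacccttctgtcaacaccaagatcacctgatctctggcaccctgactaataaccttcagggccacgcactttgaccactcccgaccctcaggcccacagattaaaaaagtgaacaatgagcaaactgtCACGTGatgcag
The E-box of Ctsl began 236 bases before the start, and those of Ctsd 245 and 98 bases before it. The Ctsl sequence ends in a stretch rich in c and t and then cag, the form of a splice site. Whether this start of Ctsl is used in these cells was not tested. In Ctsa the E-box shown began 12 bases before the start, and a further match began at base 6 of the transcript. Among genes with the motif, the log2 fold change of NET-conditioned over control medium was -0.43 for Ctsl, -0.18 for Ctsd and -0.12 for Ctsa. Among those with a promoter and no match it was 0.41 for Ctsc, -0.08 for Ctsz and -0.08 for Cst3, and Ctss did not pass the filter on low counts. Ctsb, Ctsh and Ctsw are in neither group for want of a promoter, and 1 of the starts of Ctsa had no match. The genes were selected from this same comparison, so a link between motif and difference was not tested.

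Of the 10 genes, 9 passed the filter on low counts, and Ctss did not. Levels are library-scaled CPM, that is counts relative to library size after scaling by the trimmed mean of M values (TMM). Over all 13956 genes tested, edgeR's quasi-likelihood test called 38.9% at an adjusted p under 0.05, with 20.2% higher and 18.7% lower in NET-conditioned medium. By the same threshold 2 of the 9 genes were higher, 2 lower and 5 not called. No support is drawn from that count or from the call of any of these genes, because the selection used the same comparison. The libraries of the 2 media did not overlap for 7 of the 9 genes, and for 49.0% of all genes tested. The median log2 fold change was -0.08 over the 9 genes and -0.00 over all genes tested, whose quartiles were -0.19 and 0.19. Because RNA was measured in bulk, a change in the share of cells that express a gene and a change in RNA per cell cannot be told apart.

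**Figure D1:**
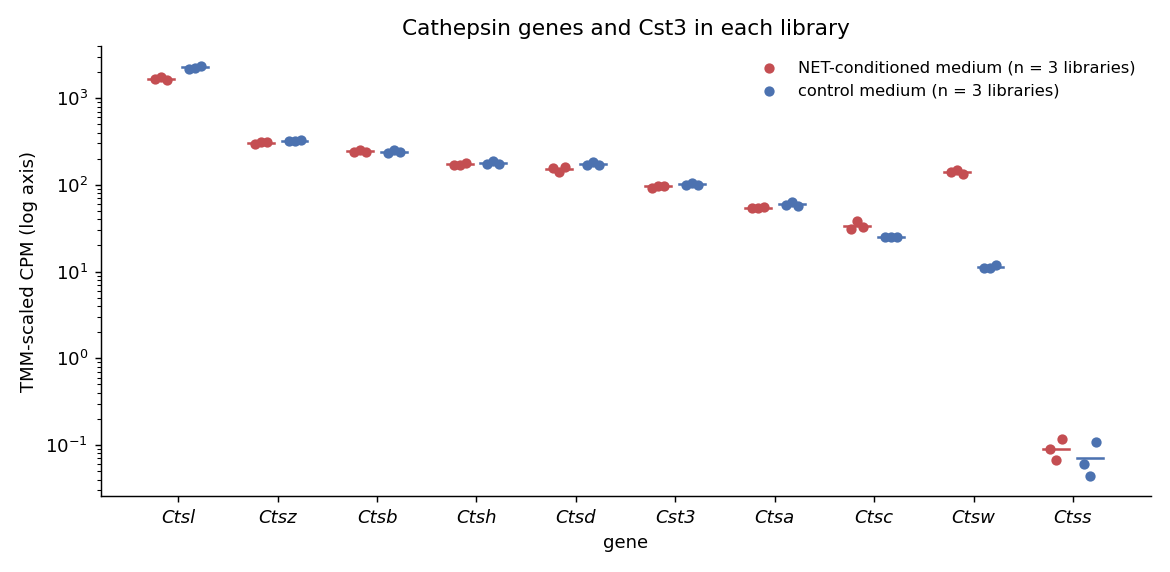
Level of each gene in each of the 6 libraries, as TMM-scaled CPM on a log axis, with NET-conditioned medium in red to the left and control medium in blue to the right and a line at each group's mean. Ctsw stands between 135 and 147 CPM in NET-conditioned medium, against 11.0 to 11.8 CPM in control medium, while the other genes keep nearly the same order in both media.

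Ctsw, a papain-like cathepsin best known from cytotoxic lymphocytes, had the largest fold difference of the 10 genes. It had 141, 147 and 135 CPM in NET-conditioned medium, against 11.0, 11.0 and 11.8 CPM in control medium. All libraries of NET-conditioned medium lay far above all of control medium. The means were 141 ± 6.27 CPM in NET-conditioned medium and 11.3 ± 0.436 CPM in control medium (SD, n = 3 each), a log2 fold change of 3.65 (SE 0.06) or 12.5-fold. The deposited counts behind these levels were 6330, 4441 and 6962 in NET-conditioned medium, against 733, 499 and 649 in control medium. At such counts the counting error was small in both groups.

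Ctsw lies on chromosome 19 from 5515071 to 5518535 on the minus strand in the deposited table, with 1887 exon bases. The build of these coordinates is uncertain, since the submitters' processing notes name mm10 and the positions differ from that assembly. Its exons share 9 bases, 0.477% of their length, with exons of Fibp on the plus strand. Fibp, which encodes a protein that binds acidic fibroblast growth factor, had 21.4, 16.8 and 19.6 CPM in NET-conditioned medium, against 17.6, 17.5 and 16.6 CPM in control medium. Its groups overlapped, and its log2 fold change of 0.17 was not called (edgeR, adjusted p = 0.138). Without NET-conditioned medium replicate 2 the log2 fold change of Fibp was 0.25 and was called (edgeR, adjusted p = 0.0281). In NET-conditioned medium Ctsw had at least 135 CPM in each library, and Fibp at most 21.4 CPM. In control medium Ctsw had 11.0 to 11.8 CPM and Fibp 16.6 to 17.6 CPM. The part of Fibp reads in the level of Ctsw was not tested. Whether reads were counted by strand is not stated in the labels or notes.

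The 2 nearest tested genes on each side of Ctsw, Fibp among them, had far smaller differences. Efemp2, an extracellular matrix protein gene 5447 bases away, averaged 39.8 ± 1.78 CPM in NET-conditioned medium and 28.2 ± 0.425 CPM in control medium (SD, n = 3 each), and rose by a log2 fold change of 0.50 (edgeR, adjusted p = 4.12e-06). Mus81, a DNA repair endonuclease gene, rose by 0.32 on the log2 scale (edgeR, adjusted p = 0.00894). Ccdc85b had a log2 fold change of -0.05 and was not called (edgeR, adjusted p = 0.564). These neighbours were taken by position and not for their values.

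By the distance between log2 CPM profiles, each centred on its own mean over the 6 libraries, the tested genes closest to Ctsw were Has2, Sfn and Dok2. Their distances were 0.229, 0.231 and 0.246 on the log2 scale. Has2, a hyaluronan synthase, averaged 456 CPM in NET-conditioned medium and 41.1 CPM in control medium. Sfn, which encodes the 14-3-3 sigma protein, averaged 362 and Dok2, an adaptor of receptor tyrosine kinases, 53.1 CPM in NET-conditioned medium, against 32.8 and 4.52 CPM in control medium. The likeness rests on 6 libraries in 2 groups and mostly restates the size of the difference between the media.

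Markers of T and NK cells were followed beside Ctsw, and all but Eomes were at or near 0. Of 12 T and NK cell markers, Nkg7, Gzmb, Prf1, Cd3d, Cd8a, Klrb1c and Ncr1 had 0 counts in all 6 libraries. Their summed level ran from 38.9 to 42.1 CPM in NET-conditioned medium and from 39.0 to 42.3 CPM in control medium, nearly all of it from Eomes, a transcription factor gene. Eomes averaged 40.9 CPM in NET-conditioned medium and 40.7 CPM in control medium and was not called (edgeR, adjusted p = 0.958). In control medium Eomes thus lay above Ctsw, which averaged 11.3 CPM there. The part of other cells' RNA in the level of Ctsw was not tested. A library with a count of 0 allows a level of up to 0.0902 to 0.199 CPM, taken as 6 counts because mates appear to be counted separately, for counting error only.

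Ctsl encodes cathepsin L, an endopeptidase of the lysosome that also degrades matrix proteins, and was the most abundant of the 10 transcripts in every library. It had 1651, 1735 and 1636 CPM in NET-conditioned medium, against 2191, 2256 and 2323 CPM in control medium. Every library of NET-conditioned medium lay below every library of control medium. The means were 1674 ± 53.4 CPM in NET-conditioned medium and 2257 ± 66.3 CPM in control medium (SD, n = 3 each), a log2 fold change of -0.43 (SE 0.05) or 1.35-fold lower. Ctsl lies on chromosome 13 from 64507151 to 64518704 on the minus strand in the deposited table. Its exons share 1742 of 6489 bases with the gene model Gm47123 on the other strand and 395 bases with Gm49230 on the same strand, both listed with 0 counts in every library. The genes with the closest profiles were Adipor2, an adiponectin receptor, Spry2, an inhibitor of receptor tyrosine kinase signalling, and Tprkb, which takes part in tRNA modification. Their distances from Ctsl were 0.0431, 0.0580 and 0.0633 on the log2 scale.

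Ctsc encodes cathepsin C, the dipeptidyl peptidase that activates granule serine proteases in neutrophils and lymphocytes. It had 30.6, 38.0 and 32.6 CPM in NET-conditioned medium, against 25.3, 25.2 and 25.3 CPM in control medium. The groups did not overlap, and the spread lay almost wholly within NET-conditioned medium. The means were 33.7 ± 3.79 CPM in NET-conditioned medium and 25.3 ± 0.0774 CPM in control medium (SD, n = 3 each), a log2 fold change of 0.41 (SE 0.07). Ctsc lies on chromosome 7 from 87927293 to 87960096 on the plus strand, and its exons overlap no other gene. Neutrophil markers were followed beside it, since NETs come from neutrophils. Elane, Csf3r, Camp, Ngp, Mmp8 and Retnlg, 6 of 13 markers, had 0 counts in all 6 libraries. The markers summed to 3.06 to 3.41 CPM in NET-conditioned medium and 1.62 to 2.23 CPM in control medium. Of the 13 markers, 2 were tested, of which 1 rose and 1 was not called, beside 38.9% of all genes tested that were called. Most of the sum was S100a8, a calcium-binding protein gene, which rose by a log2 fold change of 0.94 (edgeR, adjusted p = 0.00136). Cxcr2 was not called (1.08, edgeR, adjusted p = 0.0575). Among markers not tested, Ly6g had 0 counts in NET-conditioned medium, against 8, 6 and 6 counts in control medium. Prtn3 had 2, 4 and 4 counts in NET-conditioned medium, against 4, 0 and 0 counts in control medium. The part of other cells' RNA in the level of Ctsc was not tested.

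Ctsb and Ctsh encode cathepsins with both endopeptidase and exopeptidase activity, and their levels overlapped between the media. Ctsb had 240, 254 and 240 CPM in NET-conditioned medium, against 233, 255 and 239 CPM in control medium, a log2 fold change of 0.01. The sign of Ctsb turned with scaling by upper quartile (-0.0091) or by library size alone (-0.055), and also without NET-conditioned medium replicate 2 (-0.013) or control medium replicate 1 (-0.015). Ctsh, chiefly an aminopeptidase, had 170, 170 and 180 CPM in NET-conditioned medium, against 174, 187 and 175 CPM in control medium, a log2 fold change of -0.04. Ctsb lies on chromosome 14 from 63359911 to 63383372 and shares 774 of its 6051 exon bases with Fdft1, a squalene synthase gene on the other strand that had 3788 to 7219 counts. Ctsh lies on chromosome 9 from 89936205 to 89958142, with no overlapping exon.

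Ctsz, which encodes a carboxypeptidase that can bind integrins, was the second most abundant gene of the group per kilobase. It had 293, 309 and 315 CPM in NET-conditioned medium, against 318, 322 and 330 CPM in control medium. The groups lay next to each other without overlapping, and the log2 fold change was -0.08 (SE 0.05). Ctsz lies on chromosome 2 from 174269286 to 174280832 and shares 10 exon bases with Nelfcd on the other strand.

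Ctss, the cathepsin of antigen-presenting cells that trims the invariant chain of MHC class II, was nearly undetected. It had 4, 2 and 6 counts in NET-conditioned medium and the same 4, 2 and 6 counts in control medium, which lies at or under 6 counts in every library. Of 10 markers of macrophages, in which Ctss is usually abundant, 5 were tested. Of these, 3 rose and 2 were not called, beside 38.9% of all genes tested that were called. Adgre1 and Tyrobp had 0 counts in all 6 libraries, and Ptprc and Lyz2 had 0 counts in NET-conditioned medium. In control medium Ptprc had 6, 2 and 8 counts and Lyz2 had 0, 0 and 4 counts. The 10 markers summed to 118 to 123 CPM in NET-conditioned medium and 58.1 to 63.9 CPM in control medium, to which Csf1r, the receptor of colony-stimulating factor 1, gave the largest part in NET-conditioned medium. Csf1r averaged 80.2 ± 5.30 CPM in NET-conditioned medium and 24.1 ± 1.43 CPM in control medium (SD, n = 3 each) and rose by a log2 fold change of 1.74 (edgeR, adjusted p = 1.65e-12). Cd74, the invariant chain, and Aif1 rose by 0.77 and 1.62 on the log2 scale (edgeR, adjusted p = 0.000723 and 0.00504). Cd14 and Cd68 were not called, with 23.6 and 10.7 CPM in NET-conditioned medium, against 20.7 and 12.4 CPM in control medium. The part of other cells' RNA in these levels was not tested.

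Ctsd and Ctsa, the cathepsins that are not cysteine proteases, were both slightly lower in NET-conditioned medium. Ctsd, the aspartic protease of the lysosome, had 158, 142 and 161 CPM in NET-conditioned medium, against 170, 185 and 168 CPM in control medium. Replicate 2 was the lowest library in NET-conditioned medium and the highest in control medium, and the groups did not overlap. The means were 154 ± 10.2 CPM in NET-conditioned medium and 175 ± 9.19 CPM in control medium (SD, n = 3 each), a log2 fold change of -0.18 (SE 0.06). Ctsd lies on chromosome 7 from 141929648 to 141941775 on the minus strand, and 808 of its 2351 exon bases are shared with Gm49369 on the same strand, which had 0 counts.

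Ctsa encodes the carboxypeptidase that protects lysosomal neuraminidase and beta-galactosidase. It had 54.7, 53.5 and 56.2 CPM in NET-conditioned medium, against 58.5, 63.9 and 56.4 CPM in control medium. The highest library of NET-conditioned medium and the lowest of control medium nearly met, with a log2 fold change of -0.12 (SE 0.06). Ctsa lies on chromosome 2 from 164674793 to 164682952 and shares 495 exon bases with Pltp and 324 with Neurl2 on the other strand, which had at most 392 and 104 counts.

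Cst3, the inhibitor in the group, had 93.1, 97.2 and 97.6 CPM in NET-conditioned medium, against 98.5, 105.5 and 99.7 CPM in control medium. The groups did not overlap but lay close together. The means were 96.0 ± 2.48 CPM in NET-conditioned medium and 101 ± 3.77 CPM in control medium (SD, n = 3 each), a log2 fold change of -0.08 (SE 0.05). Cst3 lies on chromosome 2 from 148713642 to 148717612 on the minus strand, with no overlapping exon.

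Levels of different genes were compared per kilobase of the deposited exon length. In NET-conditioned medium the order was Ctsl (258 ± 8.23 CPM per kb), Ctsz (212 ± 7.69), Cst3 (75.8 ± 1.96), Ctsw (74.8 ± 3.32), Ctsd (65.3 ± 4.36), Ctsb (40.5 ± 1.36), Ctsh (38.6 ± 1.29), Ctsa (11.6 ± 0.284), Ctsc (5.81 ± 0.653) and Ctss (0.0668 ± 0.0184), each with its SD over 3 libraries. In control medium the order was Ctsl (348 ± 10.2 CPM per kb), Ctsz (224 ± 4.31), Cst3 (80.0 ± 2.98), Ctsd (74.2 ± 3.91), Ctsb (40.1 ± 1.89), Ctsh (39.8 ± 1.65), Ctsa (12.6 ± 0.821), Ctsw (5.98 ± 0.231), Ctsc (4.35 ± 0.0133) and Ctss (0.0524 ± 0.0248). Neighbours whose libraries overlapped were Cst3 with Ctsw and Ctsb with Ctsh in NET-conditioned medium, and Cst3 with Ctsd and Ctsb with Ctsh in control medium. Ctsw thus ranked 4 of 10 in NET-conditioned medium and 8 of 10 in control medium. With exon length free of overlap its ranks were 5 in NET-conditioned medium and 8 in control medium, and with the principal transcript of GENCODE vM21 they were 3 and 9. The last length was added after the data were seen and put Ctsl at 849 CPM per kb in NET-conditioned medium and 1145 CPM per kb in control medium, so levels per kilobase depend on which exons are counted.

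The 9 cathepsins summed to 707 ± 11.9 CPM per kb in NET-conditioned medium and 749 ± 16.4 CPM per kb in control medium (SD, n = 3 each). The sum was slightly lower in NET-conditioned medium, and without Ctsl it was 449 ± 8.19 CPM per kb in NET-conditioned medium and 401 ± 8.49 CPM per kb in control medium. Ctsl made up 36.5 ± 0.829% of the sum in NET-conditioned medium and 46.4 ± 0.629% in control medium. Ctsw made up 10.6 ± 0.427% in NET-conditioned medium and 0.798 ± 0.0248% in control medium. The share of Ctsz was nearly level, with 30.0 ± 0.783% in NET-conditioned medium and 29.9 ± 0.392% in control medium. With the principal transcript lengths the share of Ctsl was 59.2% in NET-conditioned medium and 69.4% in control medium, and that of Ctsw 7.93% in NET-conditioned medium and 0.551% in control medium. The share of Ctsz was then 14.8% in NET-conditioned medium and 13.6% in control medium. Under both lengths the share of Ctsw was higher and that of Ctsl lower in NET-conditioned medium. Those directions could not have differed, because a gene keeps its length in both media and these genes had the largest rise and the largest fall. Only the size of the shares depends on the length.

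**Figure D2:**
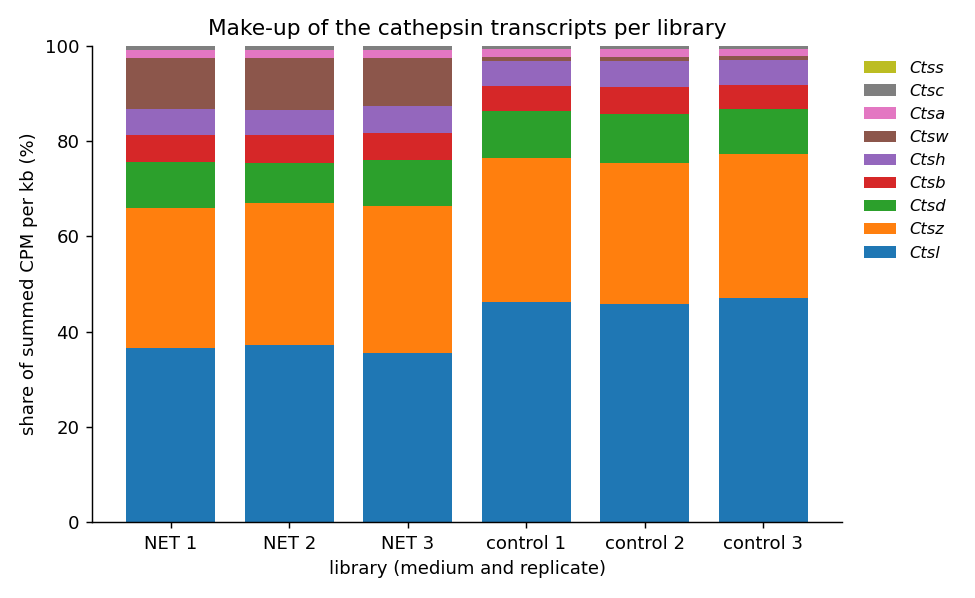
Share of each of the 9 cathepsins in their summed CPM per kb, in percent, with a stacked bar for each library and NET-conditioned medium to the left of control medium. The brown band of Ctsw takes 10.1% to 10.9% of each bar in NET-conditioned medium and under 1% in control medium, and the blue band of Ctsl is the widest in every library.

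The list of other cathepsins held 15 genes, with Napsa, which encodes napsin A, counted among them. Most were silent or nearly so. Counts were 0 in all libraries for 10 of them, among them Ctsg, a neutrophil granule protease. Ctsk, a bone matrix protease that neighbours Ctss, had 0, 0 and 4 counts in NET-conditioned medium, against 2, 6 and 2 counts in control medium. Ctsf had 2, 0 and 6 counts in NET-conditioned medium and 0 counts in control medium. Of 3 genes tested (Ctse, Napsa and Ctso), 1 rose and 2 were not called, beside 38.9% of all genes tested that were called. Their median log2 fold change was 0.18. The gene that rose was Ctso, a papain-like cathepsin, with 4.46, 5.71 and 4.65 CPM in NET-conditioned medium, against 3.47, 3.89 and 2.72 CPM in control medium. Its groups did not overlap, with a log2 fold change of 0.55 (SE 0.16; edgeR, adjusted p = 0.0102). Without NET-conditioned medium replicate 2 its log2 fold change was 0.44 and the call was lost (edgeR, adjusted p = 0.0503).

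Among 23 other cystatins and related inhibitors, 7 were tested, with a median log2 fold change of 0.48. Of these, 3 rose, 2 fell and 2 were not called, beside 38.9% of all genes tested that were called. Cstb, which encodes the cytosolic inhibitor cystatin B, had 125, 125 and 129 CPM in NET-conditioned medium, against 76.1, 84.7 and 80.3 CPM in control medium. Its groups lay well apart, and it rose by a log2 fold change of 0.65 (SE 0.05; edgeR, adjusted p = 2.65e-08). Cst6, which encodes the secreted inhibitor cystatin M, had 4.75, 3.92 and 4.46 CPM in NET-conditioned medium, against 6.51, 6.68 and 6.10 CPM in control medium. It fell by 0.55 on the log2 scale (SE 0.12; edgeR, adjusted p = 0.00170).

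Ctla2a, which resembles the propeptide of cysteine cathepsins and inhibits them, had 7.41, 3.32 and 4.65 CPM in NET-conditioned medium, against 0.571, 0.619 and 0.545 CPM in control medium. Its libraries varied within NET-conditioned medium but lay above all of control medium, with a log2 fold change of 3.16 (SE 0.28; edgeR, adjusted p = 3.39e-07). Its close paralog Ctla2b averaged 1.65 ± 0.336 CPM in NET-conditioned medium and 0.164 ± 0.0133 CPM in control medium (SD, n = 3 each), and rose by 3.32 on the log2 scale (edgeR, adjusted p = 6.94e-07). The 2 genes are uncertain because reads can be split between near-identical copies. Fetub, a cystatin-family gene better known for inhibiting metalloproteases than cathepsins, averaged 0.534 ± 0.170 CPM in NET-conditioned medium and 1.37 ± 0.198 CPM in control medium (SD, n = 3 each). It fell by 1.39 on the log2 scale (edgeR, adjusted p = 0.00138). Ctla2b and Fetub were named only once their values were known.

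**Figure D3:**
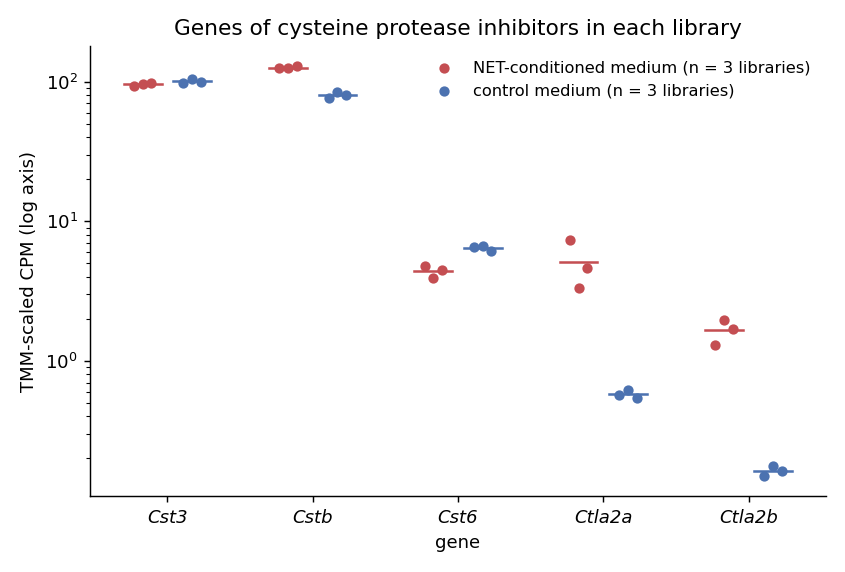
Level of genes of cysteine protease inhibitors in each library, as TMM-scaled CPM on a log axis, with NET-conditioned medium in red to the left and control medium in blue to the right and a line at each group's mean. Cstb stands at 125 to 129 CPM in NET-conditioned medium, against 76.1 to 84.7 CPM in control medium, while Cst3 lies near 100 CPM in both.

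The 7 cysteine cathepsins summed to 630 ± 15.4 CPM per kb in NET-conditioned medium and 662 ± 15.6 CPM per kb in control medium (SD, n = 3 each). Their ratio to Cst3 was 8.31 ± 0.148 in NET-conditioned medium and 8.29 ± 0.305 in control medium. Their ratio to Cst3 and Cstb together was 2.21 ± 0.0607 in NET-conditioned medium and 3.11 ± 0.120 in control medium. At these deposited exon lengths the first ratio overlapped between the media and the second did not. With the principal transcript lengths the ratio to Cst3 was 12.1 ± 0.294 in NET-conditioned medium and 13.2 ± 0.499 in control medium, without overlap, so the ratio to Cst3 depends on the length used. The ratio to both inhibitors was then 4.20 ± 0.131 in NET-conditioned medium and 6.18 ± 0.237 in control medium, again without overlap. These are ratios of RNA, and protein and protease activity were not measured.

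Genes for the maturation and sorting of cathepsins moved both ways. Of 20 tested, 3 rose, 7 fell and 10 were not called, beside 38.9% of all genes tested that were called. Their median log2 fold change was -0.11. Lrp1, an endocytic receptor that can take up procathepsin D, rose by 0.46 on the log2 scale (edgeR, adjusted p = 0.000751), Gga2, an adaptor of the receptors at the Golgi, by 0.31 (adjusted p = 0.00602) and Psap, the precursor of the saposins, by 0.21 (adjusted p = 0.00348). Sorl1, a sorting receptor, averaged 102 ± 5.48 CPM in NET-conditioned medium and 152 ± 5.83 CPM in control medium (SD, n = 3 each) and fell by 0.58 on the log2 scale (edgeR, adjusted p = 1.50e-07). Nagpa and Gnptg, which take part in making the mannose 6-phosphate tag, fell by 0.40 and 0.35 on the log2 scale (edgeR, adjusted p = 0.00454 and 0.0130). The call of Gnptg was lost without NET-conditioned medium replicate 3 (adjusted p = 0.0568) and without control medium replicate 2 (adjusted p = 0.0619). Lgmn, the legumain that cuts several cathepsins to their mature chains, had 112, 127 and 123 CPM in NET-conditioned medium, against 114, 118 and 124 CPM in control medium. Its groups overlapped, with a log2 fold change of 0.02 (edgeR, adjusted p = 0.791). The count of genes that fell was 3 without NET-conditioned medium replicate 3, and 4 without control medium replicate 1 or without control medium replicate 2.

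The MiT factors that can bind the E-box were followed with genes that control them. Of 12 tested, 1 rose, 1 fell and 10 were not called, beside 38.9% of all genes tested that were called, and their median log2 fold change was -0.03. Tfeb had 6.34, 5.84 and 6.11 CPM in NET-conditioned medium, against 6.75, 7.92 and 7.63 CPM in control medium. Its groups did not overlap, but the log2 fold change of -0.28 was not called (edgeR, adjusted p = 0.0546), whereas it was called without control medium replicate 1 (-0.35, adjusted p = 0.0419), with upper-quartile scaling (-0.30, adjusted p = 0.0379) and with library size alone (-0.35, adjusted p = 0.0199). Tfe3 averaged 69.4 ± 0.337 CPM in NET-conditioned medium and 68.0 ± 0.943 CPM in control medium (SD, n = 3 each), with a log2 fold change of 0.03 (edgeR, adjusted p = 0.690). Zkscan3, known as a repressor of autophagy and lysosome genes, rose by 0.25 on the log2 scale (edgeR, adjusted p = 0.00601), and the call was lost without NET-conditioned medium replicate 3 (adjusted p = 0.0504). Fnip2, a partner of folliculin, fell by 0.21 on the log2 scale (edgeR, adjusted p = 0.0380) with overlapping groups. That call was lost without NET-conditioned medium replicate 2 (-0.15, adjusted p = 0.155), NET-conditioned medium replicate 3 (-0.21, adjusted p = 0.108), control medium replicate 1 (-0.16, adjusted p = 0.188) or control medium replicate 2 (-0.20, adjusted p = 0.0983). TFEB and TFE3 are controlled largely by phosphorylation, which RNA does not show.

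The 38 other lysosomal hydrolases and their helpers, all tested, divided into 7 that rose, 12 that fell and 19 not called. Called genes were 50% of this list, beside 38.9% of all genes tested, and its median log2 fold change was -0.11. Without control medium replicate 1 the count that rose was 4. Arsb, which desulfates dermatan and chondroitin sulfate, rose by 0.48 on the log2 scale (edgeR, adjusted p = 3.60e-06) and Dnase2a, the acid DNase of the lysosome, by 0.39 (adjusted p = 0.000567). Dnase2a averaged 17.8 ± 0.200 CPM in NET-conditioned medium and 13.6 ± 0.338 CPM in control medium (SD, n = 3 each). Gba2 rose by 0.49 on the log2 scale (edgeR, adjusted p = 7.07e-05), but it encodes the glucosylceramidase that works outside the lysosome. Gm2a, the activator of ganglioside GM2 breakdown, averaged 68.2 ± 5.26 CPM in NET-conditioned medium and 99.8 ± 3.18 CPM in control medium (SD, n = 3 each), and fell by 0.55 on the log2 scale (edgeR, adjusted p = 9.68e-07). Ctbs, a chitobiase, fell by 0.59 on the log2 scale (edgeR, adjusted p = 0.000287) and Ppt2, a thioesterase, by 0.46 (adjusted p = 0.00424).

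**Figure D4:**
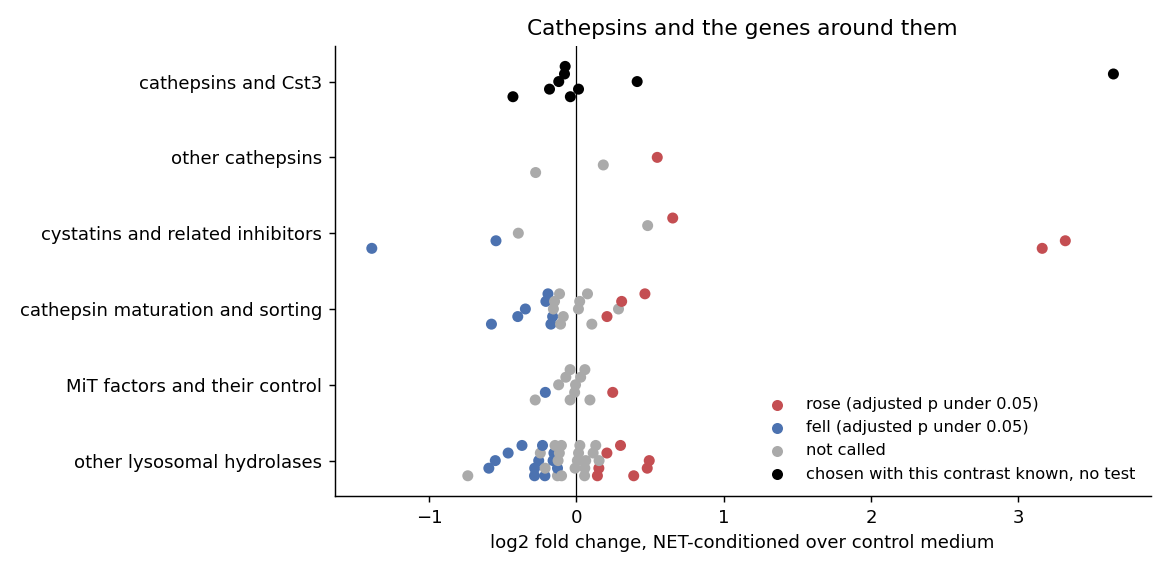
Log2 fold change of NET-conditioned over control medium for the tested genes of each list, with red for genes that rose, blue for genes that fell and grey for genes not called. Black marks the cathepsins and Cst3, which are not coloured by call because they were selected from this comparison. Ctsw at 3.65, Ctla2b at 3.32 and Ctla2a at 3.16 stand far to the right, while most genes lie between -0.60 and 0.65.

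The cells carried epithelial markers throughout, whose 8 genes summed to 4334 to 4537 CPM in NET-conditioned medium and 4085 to 4383 CPM in control medium. Of these 8, 2 rose, 3 fell and 3 were not called, beside 38.9% of all genes tested that were called. On the log2 scale Cldn4 rose by 1.06 and Krt8 by 0.25, while the changes were -0.27 for Krt18, -0.14 for Cdh1 and -0.14 for Cldn7. Fibroblast and endothelial markers summed to 75.7 to 82.1 CPM in NET-conditioned medium and 55.1 to 62.7 CPM in control medium. Of the 10, 3 were tested, of which 2 rose and 1 was not called, beside the same 38.9% of all genes tested. Dcn and Lum, which encode fibroblast proteoglycans, had 0 counts in all 6 libraries. Col1a1, a collagen gene, averaged 13.4 ± 2.48 CPM in NET-conditioned medium and 1.18 ± 0.129 CPM in control medium (SD, n = 3 each) and rose by a log2 fold change of 3.49 (edgeR, adjusted p = 2.34e-11). Cdh5, the endothelial cadherin gene, rose by 0.27 on the log2 scale (edgeR, adjusted p = 0.0266). Pdgfra, a receptor of platelet-derived growth factor, averaged 49.2 CPM in NET-conditioned medium and 45.4 CPM in control medium and was not called (edgeR, adjusted p = 0.164). Their part in the levels of the cathepsins was not tested.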

How the data were processed

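RNA was measured in 6 libraries of 410.4 cells, 3 in NET-conditioned medium and 3 in control medium, grouped by the labels. Per the labels' protocols, RNA came from a spin-column kit, and the library kit kept strand and selected mRNA. The authors deposited whole-number read counts per gene, made with STAR 2.7.10a and featureCounts of Subread 2.0.3 on mm10, per the submitters' processing notes. Not given in the sources used here are the strand setting, the treatment of multi-mapping reads and the annotation. Libraries of NET-conditioned medium held 45487210, 31119105 and 52890140 counts, and those of control medium 64431811, 43923391 and 54585562. Between 74.8% and 78.4% of counts from 1 to 20 were even, so mates appear to be counted separately, and limits cover counting error only.

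Counts were scaled by TMM, filtered with filterByExpr (minimum count 10) and tested with edgeR 4.0.16 in R 4.3.3 (robust glmQLFit, glmQLFTest, medium alone). Benjamini-Hochberg adjustment ran over 13956 genes, with calls at an adjusted p under 0.05. The SE of a log2 fold change was derived from this test, as its absolute value over the square root of the F statistic. For the cathepsins and Cst3 it is given as a description. The common biological coefficient of variation was 0.0620. Alternatives used RLE, upper-quartile or library size scaling, no filter, at least 1 CPM in 3 libraries, DESeq2 1.42.0, limma-voom (limma 3.58.1), a replicate block, omission of each library, and other gene lengths. Chi-square per degree of freedom between libraries of a group was 9.59 to 25.1, so no pair agreed within sampling noise and none was merged, which does not show that cultures were separate.

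The genes and lists were chosen with earlier results of these data known. Besides the 10 genes, the text names in each of the 5 lists the 3 largest called changes per direction among genes averaging 1 CPM or more, and Fibp, Ctsk, Ctsf, Ctso, Cstb, Cst6, Lgmn, Tfeb and Tfe3 whatever their values. For the likeness, uncharacterised gene models and genes under 5 CPM were passed over. Other genes were named as neighbours, markers or after their values were seen. Promoter sequences are RefSeq's on GRCm38.p6.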

Additional observations from a re-analysis of the deposited data

How the results depend on the processing

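The log2 fold changes of Ctsw (3.58 to 3.68), Ctsl (-0.50 to -0.41), Ctsc (0.32 to 0.47) and Ctsd (-0.25 to -0.13) kept their direction under all 14 alternatives to the scaling, filter, tool and libraries. Ctsb turned to -0.0091 with upper-quartile scaling and -0.055 with library size alone, and ran from -0.015 to 0.050 when single libraries were left out, below 0 without NET-conditioned medium replicate 2 (-0.013) and without control medium replicate 1. Library size alone moved the median log2 fold change of all genes to -0.07 and the share of calls that were higher to 35.9%, against 52.0% with TMM. With it 12 maturation and sorting genes fell, 4 MiT genes fell and 4 hydrolases rose, and with upper-quartile scaling 2 MiT genes fell. Leaving out single libraries gave 0 to 1 other cathepsins that rose, 3 to 8 maturation and sorting genes that fell, 0 to 1 MiT genes that rose, 0 to 2 that fell, and 4 to 6 hydrolases that rose. The cause was not tested. The labels do not say whether libraries with the same replicate number were paired. Deviations of same-numbered libraries correlated at 0.19, -0.10 and 0.10, and so few pairs cannot decide it. A replicate block gave 2969 genes higher and 2713 lower, against 2825 and 2605 without it. Levels per kilobase, shares and ratios depend on the length used, and Ctss lies at the limit of the depth.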
